A study of Homo sapiens with 26 samples.

Results

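RNA levels of unstressed HCT116 cells carrying the S181E mutant of IGF2BP1 were compared with those of cells carrying wild-type IGF2BP1 (WT). The comparison rests on 3 S181E and 3 WT control libraries out of 26 in the series, chosen by their labels. HCT116 is a human colorectal carcinoma line. All 6 libraries came from cells in which IGF2BP2 and IGF2BP3 had been edited with Cas9, with single-cell clones picked, and which expressed mCherry-tagged IGF2BP1 from a lentivirus under the human PGK promoter. S181E replaces a serine of the first disordered linker by glutamate, which carries a negative charge like a phosphorylated serine. Control cells received PBS in place of arsenite, and the libraries hold poly(A) RNA from clarified lysate of 3 dishes per group. Each construct was carried by 1 sorted population, so that the mutation and the history of its population cannot be told apart, and p-values measure the spread between dishes. A control library of parental HCT116 cells, without the edits and the transgene, is given beside the results as 1 unreplicated value.

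IGF2BP1 is an RNA-binding protein of embryonic tissues that is made again in many carcinomas. It binds mRNAs through RNA recognition motifs and KH domains joined by flexible linkers, and it is known for protecting bound mRNAs from decay and for joining stress granules. Phosphorylation in the linkers has been proposed to change how proteins of this family hold RNA. The study reported similar affinities of S181E and wild type for model RNAs in vitro, and less binding of many target RNAs in cells.

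Of 9099 tested protein-coding genes, 8892 lay outside a stretch of chromosome 8 that runs from HGSNAT, whose start is at 43140464 in hg38, to the end of the chromosome and holds the other 207. The stretch was lower as a block in S181E and is described apart from the other genes. A gene was called when edgeR's quasi-likelihood test gave an adjusted p under 0.05 and the fold change was above 1.2. Outside the stretch, 1425 genes (16.0%) were called higher and 1223 (13.8%) lower in S181E, and these percentages are the background against which the gene groups below are read. In 2600 of these 2648 genes the 3 S181E libraries did not overlap with the 3 WT libraries. Genes called at a small p tend to separate in this way, so the count is no independent support for the calls. The share without overlap over all tested genes was not counted. Most changes were small, and 8 genes rose and 47 fell by more than 2-fold.

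The 6 libraries held 27694194 to 38635034 counts. The mitochondrial chromosome took 21.09% to 26.87% of the counts in WT and 11.66% to 14.26% in S181E. Levels are given as CPM, a gene's share of the protein-coding counts of its library, on totals scaled with TMM factors, which trim extreme genes. Scaling by library totals alone moved the median log2 difference of the genes outside the stretch from 0.03 to 0.18, and the calls to 3236 higher and 492 lower, so that 86.8% of calls were higher instead of 53.8%. With the mitochondrially encoded genes left out of those totals, the median was 0.06, with 1723 calls higher and 1025 lower. All differences below are therefore relative to the bulk of genes. WT replicate 2 had the highest mitochondrial share, and without it 1170 genes were called higher and 987 lower. The Y396E arsenite library of replicate 3, which entered the shared estimate of spread, had counts in 13897 genes, where each of the others had counts in 20850 or more. Without it, 1316 genes were called higher and 1447 lower, so that falls were the majority, as they were with the S181E and WT libraries alone (1308 higher and 1438 lower). The part of the mitochondrial share in the differences of other genes was not tested.

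Markers of epithelial cells were present in both groups. EPCAM, CDH1, KRT8, KRT18, KRT19 and CDX2 were all detected, at 18.9 CPM or more in each library, whereas the intestinal genes VIL1 and LGALS4 had at most 4 counts in a library. Of 16 markers of other cell types, PTPRC, CD3E, COL3A1, DCN and LUM were at 0 counts in all 6 libraries. COL1A1, listed for fibroblasts, was at 9.16 to 9.98 CPM in WT and 6.78 to 8.41 CPM in S181E. DES, listed for muscle, was at 2.92 to 3.65 CPM in WT and 3.75 to 4.6 CPM in S181E. The summed level of the 16 markers was 74.9 to 78.3 CPM in WT and 62.2 to 66.0 CPM in S181E. Most of it was MBP, whose gene also gives a transcript outside myelin. MBP itself was called lower, with a log2 difference of -0.29 ± 0.06 (SE), and lost its call without S181E replicate 3 or WT replicate 2.

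Of the IGF2BP genes themselves, IGF2BP1 and IGF2BP3 were called higher in S181E and IGF2BP2 was not called. The study had sorted the populations within a narrow range of mCherry signal so that levels of the tagged proteins would be comparable. The values here are of RNA, not of protein. IGF2BP1 (ENSG00000159217.10, chromosome 17, 48997385 to 49056145) was at 10.8, 10.5 and 14.5 CPM in WT and at 18.0, 17.1 and 20.1 CPM in S181E. The groups did not overlap, and the log2 difference was 0.63 ± 0.10 (SE, adjusted p = 2.3e-05, edgeR). The parental library held 0.343 CPM, and reads of the transgene and of the cell's own gene cannot be told apart. IGF2BP2 and IGF2BP3 RNA was still present after the editing, and these counts do not tell whether it encodes protein. IGF2BP2 was at 78.3 to 81.7 CPM in WT and 80.8 to 88.8 CPM in S181E, overlapped between the groups and was not called (log2 difference 0.07 ± 0.05). IGF2BP3 was at 115, 116 and 118 CPM in WT and at 159, 162 and 153 CPM in S181E, and was called higher by 0.44 ± 0.05 on the log2 scale (adjusted p = 1.02e-07). The parental library held 119 CPM of IGF2BP2 and 91.0 CPM of IGF2BP3.

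**Figure D1:**
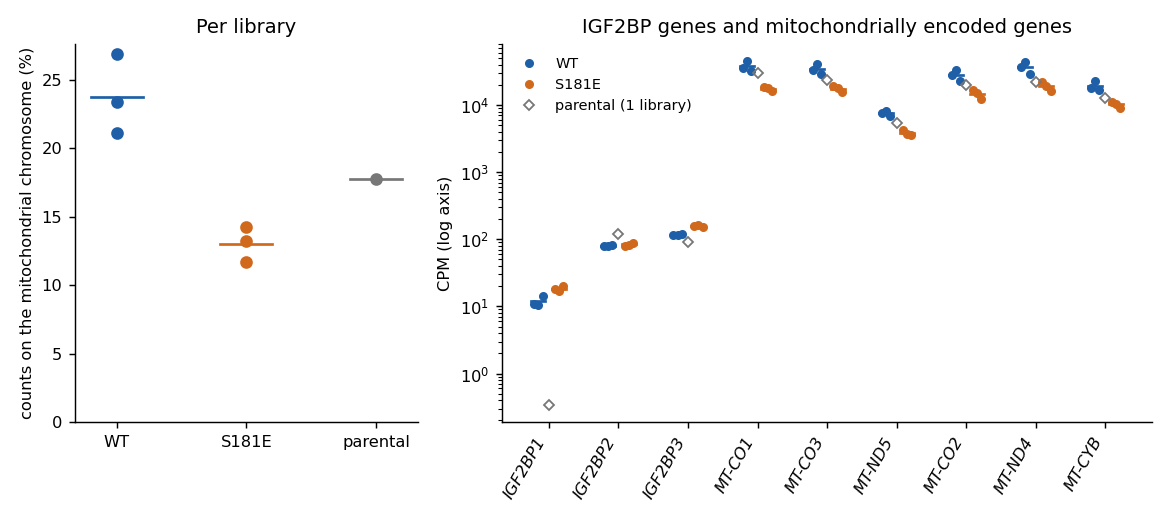
Left, percent of all counts on the mitochondrial chromosome in each control library, with bars at group means. Right, CPM on a log axis of the IGF2BP genes and of the 6 mitochondrially encoded genes with the largest falls, with 3 points and a bar at the mean per group and a diamond for the parental library. IGF2BP1 was higher in S181E by 0.63 on the log2 scale, and every mitochondrially encoded gene shown was lower.

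The 3 largest rises outside the stretch were those of VSNL1, ZBED2 and SYTL2. VSNL1, a calcium sensor of neurons, was at 2.45, 2.01 and 2.14 CPM in WT and at 17.0, 16.1 and 16.1 CPM in S181E, a 7.38-fold rise (log2 difference 2.88 ± 0.12, SE, adjusted p = 5.47e-15). ZBED2, a zinc finger repressor that acts on interferon-regulated genes, was at 10.5, 10.1 and 12.02 CPM in WT and at 62.0, 63.7 and 61.3 CPM in S181E (2.52 ± 0.12). SYTL2, which tethers Rab27 vesicles to membranes, went from 6.33, 6.29 and 5.27 CPM to 28.5, 31.8 and 30.9 CPM (2.35 ± 0.08). For these 3 genes the lowest S181E library was far above the highest WT library. BMP4, a secreted ligand of the TGF-beta family, was at 87.4, 104.5 and 84.6 CPM in WT and at 281.3, 283.1 and 275.5 CPM in S181E (1.60 ± 0.07). TUBA4A, an alpha-tubulin, rose by 1.498 ± 0.12 on the log2 scale and ALDH2, the mitochondrial aldehyde dehydrogenase, by 1.11 ± 0.13. CDK6, a D-type cyclin partner that drives entry into S phase, was at 19.1 to 22.5 CPM in WT and 43.5 to 46.3 CPM in S181E (1.08 ± 0.09). The remaining leading rises were PHLDB2, PPFIBP1, TBC1D2, KIFC3 and PKP2, whose log2 differences lay between 0.94 and 1.04. Several of them act at the cell edge, PHLDB2 and PPFIBP1 near focal adhesions and PKP2 in desmosomes.

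The 3 largest falls were those of KLK5, HTR7 and MKX. KLK5, a kallikrein serine protease, was at 25.1, 29.5 and 24.2 CPM in WT and at 3.59, 3.68 and 3.33 CPM in S181E, a 7.43-fold fall (log2 difference -2.89 ± 0.13, SE, adjusted p = 1.48e-14). HTR7, a serotonin receptor, was at 37.8, 37.2 and 36.7 CPM in WT and at 4.85, 5.53 and 5.86 CPM in S181E (-2.78 ± 0.15). MKX, a homeobox factor of tendon, went from 21.98, 22.39 and 22.53 CPM to 3.81, 4.64 and 4.69 CPM (-2.35 ± 0.17). In each of the 3 the S181E libraries lay far below WT. PRSS22, another serine protease, fell by 1.87 on the log2 scale, and SUSD2, a membrane protein, by 1.71. AREG, the EGF receptor ligand amphiregulin, was at 727.9, 856.2 and 651.3 CPM in WT and at 231.3, 230.9 and 222.6 CPM in S181E (-1.71 ± 0.08, adjusted p = 1.92e-14). ANGPTL4, an inhibitor of lipoprotein lipase, and MERTK, a receptor kinase that takes part in clearing dying cells, each fell by 1.58. The filter on low counts bears on these lists. VSNL1, SYTL2 and ALDH2 were at or under 10 CPM in all 3 WT libraries, and 8 of the 12 largest falls, KLK5, HTR7 and MKX among them, in all 3 S181E libraries, so that they passed the filter only through libraries of other groups, and their differences are no independent count of change. The same held for 87 of the 1425 genes called higher and 65 of the 1223 called lower outside the stretch.

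All 5 tested kallikreins were lower. They lie next to each other on chromosome 19, from KLK5 at 50943303 to KLK10, which ends at 51020175, and the family is known for cleaving desmosomal proteins and one another in epithelia. KLK7 was at 150.2, 157.7 and 138.5 CPM in WT and at 45.6, 43.4 and 42.6 CPM in S181E (log2 difference -1.76 ± 0.05). KLK10 and KLK6 fell by 1.55 and 1.54 on the log2 scale and KLK8 by 1.12. The list median was -1.55, beside 0.03 for all genes outside the stretch. The 5 other kallikreins of the list were below the filter on low counts.

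The parental library did not lie on one side of these differences. VSNL1, ZBED2, KLK5 and HTR7 were at 18.0, 49.7, 7.30 and 8.29 CPM in it, nearer the S181E level than the WT level. BMP4, MKX, PRSS22 and PKP2 were at 81.4, 26.1, 25.3 and 21.99 CPM, near the WT level. Over the 1425 genes called higher, the parental level was nearer S181E in 655 and nearer WT in 770, and over the 1223 called lower it was nearer S181E in 634 and nearer WT in 589, on the scale of log2(CPM + 0.5). With 1 parental library these counts have no test.

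**Figure D2:**
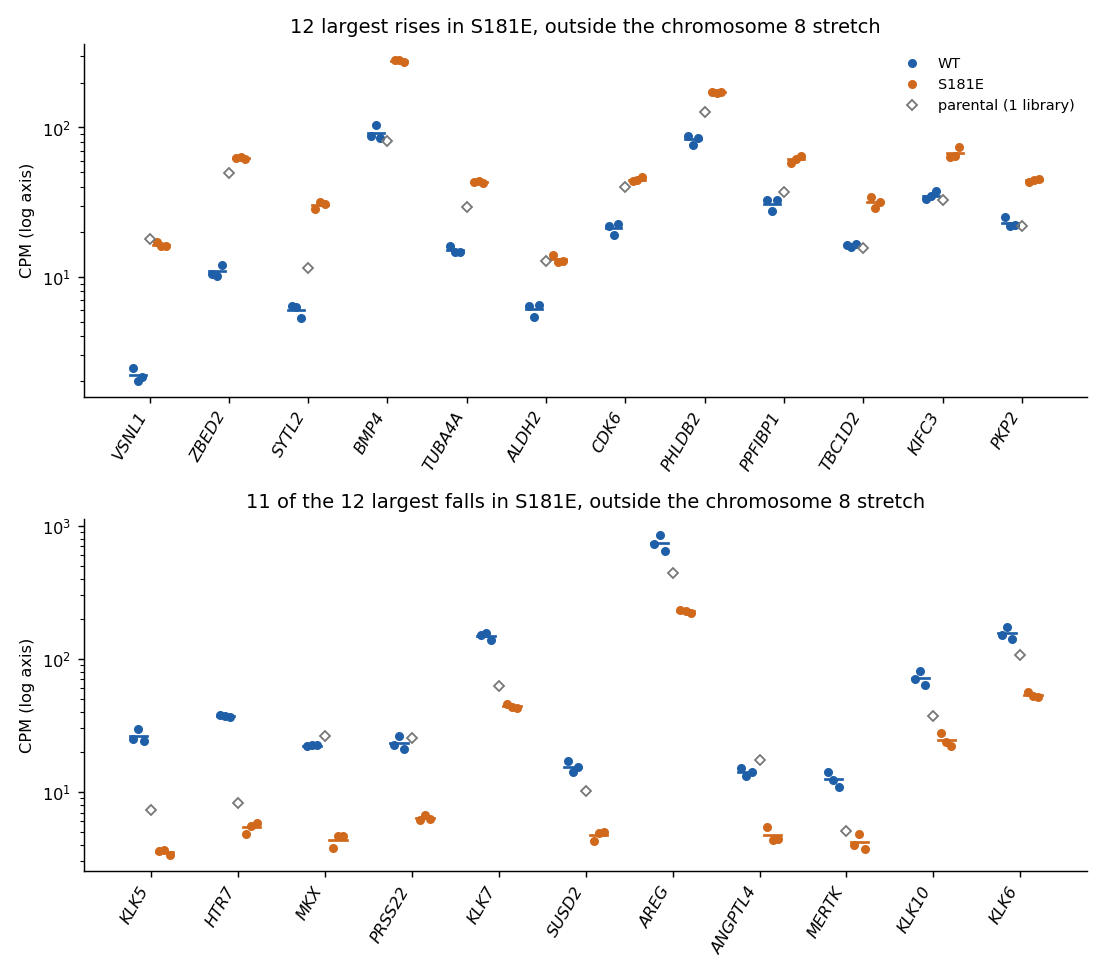
CPM on a log axis of the 12 genes with the largest rises (top) and 11 of the 12 with the largest falls (bottom) outside the stretch, in 3 WT libraries (blue), 3 S181E libraries (orange) and the parental library (diamond), with bars at group means. In all genes shown, which were chosen for this, the points of the 2 groups do not overlap, and the parental diamond lies with S181E for some genes and with WT for others.

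The other mutant populations of the series gave a side-by-side reading of the same genes. In unstressed cells with the second glutamate mutant, Y396E, VSNL1 was at 14.03 ± 0.96 CPM, BMP4 at 278 ± 11.6 CPM, KLK5 at 4.28 ± 0.62 CPM and MKX at 4.73 ± 0.83 CPM (SD, n = 3), close to the S181E levels. In cells with RQ, which replaces arginines of the first linker by glutamine, the same genes were at 2.08 ± 0.23, 74.1 ± 7.06, 23.5 ± 1.69 and 24.6 ± 2.18 CPM, close to the WT levels. The mutants share the WT libraries as their reference, and the differences between the mutants were not tested here.

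Genes of the cell cycle rose together. Of 30 tested mitosis genes 25 were called higher and none lower, against a background of 16.0% higher, and the list median was 0.51. TPX2, which brings Aurora A kinase to the spindle, was at 69.4, 56.9 and 72.2 CPM in WT and at 117, 117 and 130 CPM in S181E, a log2 difference of 0.87 ± 0.07 (SE, adjusted p = 1.65e-10). INCENP, the scaffold of the chromosomal passenger complex, rose by 0.79 ± 0.10, the spindle motor KIF11 by 0.78 ± 0.08 and the microtubule depolymerase KIF2C by 0.77 ± 0.07. None of these 4 overlapped between the groups, which also held for 2600 of the 2648 called genes outside the stretch. All 30 members had log2 differences above 0, and the 5 that were not called, BUB3, CENPE, CENPF, UBE2C and PTTG1, lay between 0.18 and 0.26. In RNA from whole cultures, a larger share of dividing cells and more of these RNAs per cell cannot be told apart.

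DNA replication genes moved the same way, with 39 of 46 called higher outside the stretch, none lower, and a median of 0.41. MCM2, a subunit of the replicative helicase, was at 77.2, 53.6 and 81.0 CPM in WT and at 125, 120 and 136 CPM in S181E (log2 difference 0.84 ± 0.10, adjusted p = 5.61e-07). WT replicate 2 was the low one of its group here, as for TPX2, and the groups did not overlap. MCM6 rose by 0.69 ± 0.08, RRM1, the large subunit of ribonucleotide reductase, by 0.71 ± 0.07, and UHRF1, which maintains DNA methylation behind the fork, by 0.67 ± 0.09. CCNE1, the G1 cyclin, was not called at 54.0 ± 0.73 CPM in WT and 50.1 ± 1.97 CPM in S181E (SD, n = 3). MCM4, another helicase subunit, lies in the chromosome 8 stretch and was called lower, with a log2 difference of -0.27 ± 0.10 and overlapping groups.

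The promoters of the cell cycle genes are shown because the lists differ in the short elements near their start sites. RefSeq promoter windows (GRCh38.p14, from 250 bases before to 50 after the start site) matched 7508 of the 9099 tested genes, with the first listed window used per gene. The letters searched on both strands were CCAAT (the CCAAT box), TTTGAA (the core of the cell cycle homology region, CHR), GGCGGGAA (bound by E2F factors) and TGATGCAA (of the type bound by ATF4), none of which contains another. Among the 24 mitosis genes with a window, 21 held CCAAT and 15 held TTTGAA, whereas 37.2% and 9.10% of all windows did. Among 40 replication genes, 12 held GGCGGGAA, beside 5.86% of all windows, and 2 held TTTGAA. The genes shown have the largest rises of their list among windows that hold the elements. Capitals mark CCAAT and TTTGAA in the mitosis genes and GGCGGGAA in the replication genes, on either strand. The sequences run 5′ to 3′ along the gene from 20 bases before the first element to 20 after the last.

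INCENP, chr11:62123884-62124026, plus strand: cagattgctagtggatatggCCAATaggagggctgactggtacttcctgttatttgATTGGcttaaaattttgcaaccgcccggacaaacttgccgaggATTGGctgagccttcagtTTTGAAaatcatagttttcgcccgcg
KIF11, chr10:92593057-92593127, plus strand: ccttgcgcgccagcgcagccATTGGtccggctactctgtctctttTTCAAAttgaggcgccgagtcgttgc
RRM1, chr11:4094442-4094489, plus strand: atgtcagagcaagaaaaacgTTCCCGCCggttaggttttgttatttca
UHRF1, chr19:4909377-4909424, plus strand: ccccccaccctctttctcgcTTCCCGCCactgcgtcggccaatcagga

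In INCENP and KIF11 the CHR core begins 10 and 28 bases before the start site, downstream of the CCAAT boxes. Windows of the genes called higher outside the stretch held TTTGAA in 167 of 1191 and GGCGGGAA in 106, and those of the genes called lower in 58 and 38 of 1008. These shares describe letters in a window, not bound sites.

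Genes that charge tRNAs and build ribosomes were also higher, by smaller amounts. Of 20 cytosolic aminoacyl-tRNA synthetases 16 were called higher and none lower, with a median of 0.30, so that most lay close to the fold threshold, and without WT replicate 2 the count was 6. AARS1, which charges alanine tRNA, was at 49.2, 38.0 and 47.2 CPM in WT and at 69.0, 59.0 and 67.7 CPM in S181E (log2 difference 0.54 ± 0.09, adjusted p = 3.53e-05). HARS1 rose by 0.44 ± 0.06 and TARS1, the threonine enzyme, by 0.37 ± 0.08. Of 16 synthetase promoter windows 6 held TGATGCAA, which 0.426% of all windows held, and those of the 2 with the largest rises are shown with the element in capitals.

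AARS1, chr16:70289666-70289713, minus strand: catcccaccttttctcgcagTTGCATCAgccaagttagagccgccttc
TARS1, chr5:33440947-33440994, plus strand: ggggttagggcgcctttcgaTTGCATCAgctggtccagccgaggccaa

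The other targets of ATF4, the factor of the amino acid response, did not follow the synthetases as a group. Of 27 tested, 5 were called higher and 4 lower, with a median of 0.10. The counts were 11 higher and 2 lower with library totals, and 3 higher without WT replicate 2. PHGDH, the first enzyme of serine synthesis, rose by 0.74 ± 0.10, whereas SLC38A2, a neutral amino acid transporter, fell by 0.67 on the log2 scale. ATF4 itself was not called at 793 ± 33.8 CPM in WT and 778 ± 24.3 CPM in S181E (SD, n = 3).

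Of 41 ribosome biogenesis factors outside the stretch 23 were called higher and none lower, with a median of 0.29. NCL, the nucleolar protein nucleolin, was at 519.4, 396.1 and 568.5 CPM in WT and at 826, 804 and 825 CPM in S181E (log2 difference 0.73 ± 0.09). The helicases DDX18 and DDX21 rose by 0.58 ± 0.08 and 0.56 ± 0.06. Translation factors counted 11 of 40 higher and none lower (7 higher without WT replicate 2, 25 with library totals), led by EIF2S1, the alpha subunit of eIF2, at 0.48 ± 0.06. Ribosomal protein genes were mostly not called. All 72 outside the stretch had log2 differences below 0, with a median of -0.19, but 11 of the 72 were called lower, a share near the background of 13.8%. That count was 1 without WT replicate 2, 22 without WT replicate 1, 19 without WT replicate 3 and 0 with library totals, which put the median at -0.03. The largest fall was that of RPL12, at -0.36 ± 0.06.

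RNA-binding proteins of stress granules and partners of IGF2BP1 were higher in 16 of 32 members outside the stretch and lower in none, with a median of 0.27, and in 27 with library totals. HNRNPU, which packages nuclear RNA, was at 177, 145 and 170 CPM in WT and at 256, 247 and 285 CPM in S181E (log2 difference 0.68 ± 0.08). The stress granule core proteins G3BP2 and G3BP1 rose by 0.48 ± 0.07 and 0.45 ± 0.06. The list also holds IGF2BP1 and IGF2BP3, given above. Among 14 RNAs known as IGF2BP1 targets and lying outside the stretch, 5 were called higher and none lower, with a median of 0.15. These were CTNNB1, the Wnt effector beta-catenin, at 0.40 ± 0.07, the cell cycle genes FOXM1, MKI67 and E2F1 at 0.36, 0.34 and 0.32, and ACTB, cytoskeletal actin, at 0.28. Without WT replicate 2 the count was 3, and E2F1 lost its call. Other targets did not pass the threshold. HMGA2 was at 318 ± 27.6 CPM in WT and 292 ± 22.6 CPM in S181E, and CD44 at 292 ± 14.8 and 260 ± 4.26 CPM (SD, n = 3).

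Genes of sterol and fatty acid synthesis fell. Outside the stretch, 16 of 25 cholesterol genes were called lower and none higher, against a background of 13.8% lower, with a median of -0.37. The regulators fell most. SREBF2, the transcription factor that switches on the pathway, was at 284, 263 and 269 CPM in WT and at 131, 122 and 133 CPM in S181E (log2 difference -1.08 ± 0.05, adjusted p = 5.17e-14), and INSIG1, the protein that holds it in the endoplasmic reticulum, fell by 1.12 on the log2 scale. Of the enzymes, TM7SF2 and MSMO1, which act on sterol rings, fell by 1.06 and 1.01 on the log2 scale. SQLE, which oxidises squalene, lies in the chromosome 8 stretch and fell by 1.52 on the log2 scale. Of the promoter windows of 19 cholesterol genes, 15 held CCAAT.

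Fatty acid synthesis genes were lower in 8 of 12 and higher in 1, with a median of -0.47. SCD, which makes oleic acid, was at 948, 911 and 882 CPM in WT and at 336, 319 and 338 CPM in S181E, a 2.76-fold fall (log2 difference -1.47 ± 0.06, adjusted p = 3.04e-15). The desaturase FADS1 and the elongase ELOVL6 fell by 0.93 and 0.92 on the log2 scale, and SREBF1, the factor for these genes, by 0.71. ACLY, which supplies cytosolic acetyl-CoA, was the one called higher (0.42 ± 0.06), and FASN was not called at 217 ± 9.29 CPM in WT and 189 ± 12.6 CPM in S181E. The parental library was near or above WT for SREBF2 (263 CPM), INSIG1 (113 CPM) and SCD (996 CPM).

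**Figure D3:**
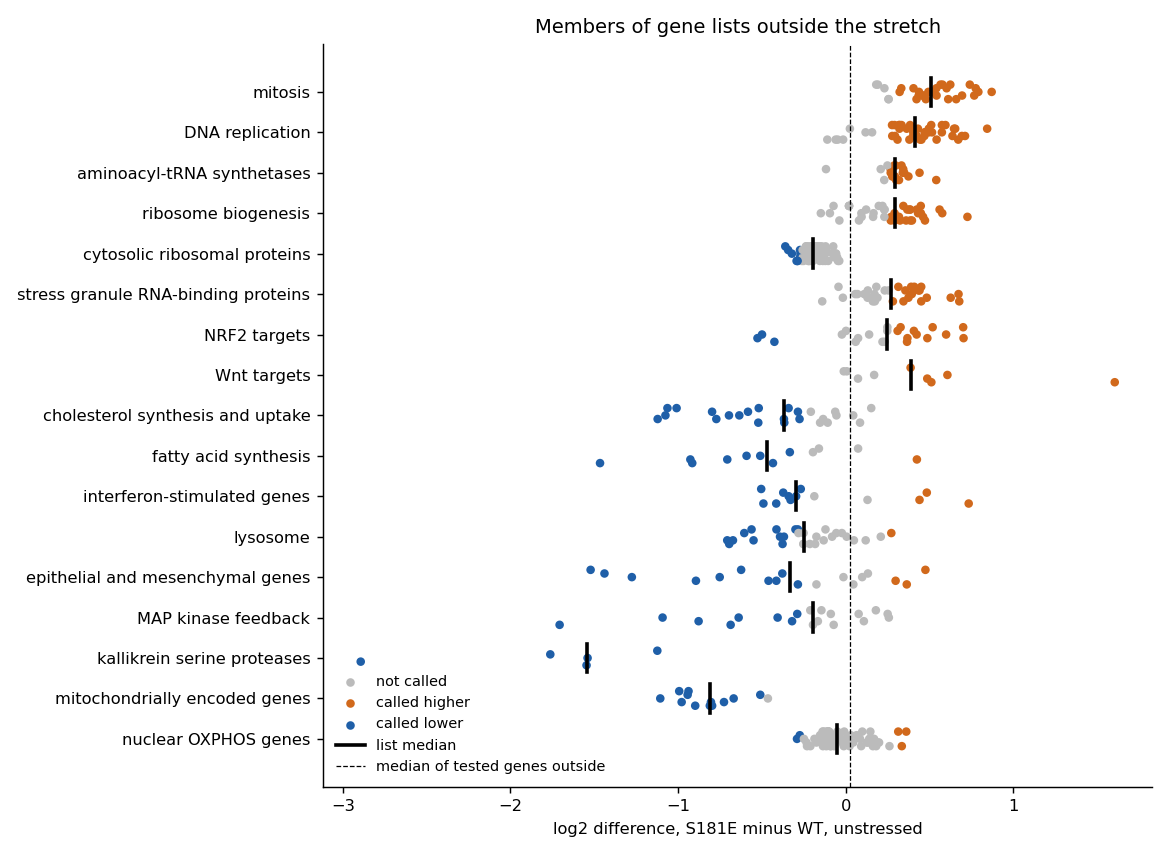
Log2 difference between S181E and WT in unstressed cells for every tested member of 17 gene lists outside the stretch. Each point is a gene, orange where called higher, blue where called lower and grey where not called, thick bars mark list medians and the dashed line the median of all tested genes outside the stretch (0.03). Mitosis (median 0.51) and replication genes (0.41) lie to the right, and kallikreins (-1.55) and mitochondrially encoded genes (-0.81) to the left.

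Mitochondrially encoded genes were lower in 12 of 13, with a median of -0.81. MT-CO1, a subunit of cytochrome oxidase, was at 36080, 45000 and 32220 CPM in WT and at 18840, 17720 and 16070 CPM in S181E (log2 difference -1.11 ± 0.13, adjusted p = 2.14e-07). MT-CO3, MT-ND5 and MT-CO2 fell by 0.99, 0.98 and 0.94 on the log2 scale. Of 70 nuclear genes for the same complexes outside the stretch, 3 were called higher and 2 lower, with a median of -0.05. Scaled by library totals, 15 were called higher and none lower, with a median of 0.11. The called ones were NDUFS1 (0.36 ± 0.07), ATP5F1A (0.33 ± 0.05) and SDHA (0.31 ± 0.11) above, and COX5B (-0.29 ± 0.06) and NDUFA13 (-0.27 ± 0.08) below. SDHA overlapped between the groups and lost its call without S181E replicate 3 or WT replicate 2. Without WT replicate 2 none was called lower, and without WT replicate 3 the count was 5. Glycolytic enzymes were higher in 10 of 18 and lower in 1, with a median of 0.33. HK1, a hexokinase, rose by 0.82 ± 0.12 and ALDOC, an aldolase, fell by 1.13 on the log2 scale. Targets of the hypoxia factor HIF had 2 of 12 higher, a share near the background of 16.0%, and 3 lower, beside a background of 13.8%.

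Junction and surface genes of epithelia fell in part. Of 15 epithelial genes outside the stretch, 9 were called lower and 3 higher, with a median of -0.38. The tight junction gene CLDN4 was at 513, 553 and 442 CPM in WT and at 188, 188 and 180 CPM in S181E (log2 difference -1.44 ± 0.07, adjusted p = 1.74e-13). CLDN3 and OCLN, of the same junctions, fell by 1.28 and 0.89 on the log2 scale, and CDH1, the E-cadherin gene, by 0.46. The keratins KRT8 and KRT7 rose by 0.36 ± 0.07 and 0.48 ± 0.11. Of the mesenchymal genes, SNAI1 (12.2 ± 0.37 CPM in WT and 12.6 ± 0.36 CPM in S181E) and AXL (188 ± 12.4 and 167 ± 7.48 CPM) were not called. Integrins and laminins had 1 of 14 higher and 4 lower (3 higher and 1 lower with library totals), led by ITGA3 at -0.56 ± 0.06. Of 9 colon differentiation factors 3 passed the filter on low counts, and of these KLF4 fell by 0.50 on the log2 scale.

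Growth factor and Wnt genes went in different directions. Of 19 MAP kinase targets and feedback genes, 8 were called lower and none higher. The counts were 5 lower and 4 higher with library totals, and 2 were higher without S181E replicate 1. Besides AREG these were led by the EGF receptor ligands EREG, at 1838, 1958 and 1635 CPM in WT and at 879, 880 and 788 CPM in S181E (log2 difference -1.09 ± 0.07), and HBEGF, at -0.88 ± 0.09, and by the early response factor EGR1, at -0.69 ± 0.09. The phosphatase DUSP6 was not called at 130 ± 6.86 CPM in WT and 112 ± 1.93 CPM in S181E. Of 9 Wnt targets, 5 were called higher and none lower. BMP4 is one of them, and DKK1, a secreted Wnt inhibitor, rose by 0.61 ± 0.08, NOTUM, which inactivates Wnt ligands, by 0.51 ± 0.08, and CCND1, cyclin D1, by 0.49 ± 0.06. SOX9 and EPHB2 were not called, with log2 differences of 0.07 and -0.01. YAP and SRF targets had 3 of 16 higher and 4 lower, and 7 higher and 2 lower with library totals. They were led by FHL2 at -0.49 ± 0.07.

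Stress and defence programmes of unstressed cells changed in part. Of 23 NRF2 targets, 11 were called higher and 3 lower, with a median of 0.25. TXNRD1, thioredoxin reductase, was at 445, 435 and 454 CPM in WT and at 714, 748 and 708 CPM in S181E (log2 difference 0.70 ± 0.04, adjusted p = 2.59e-12). OSGIN1 and the cystine transporter SLC7A11 rose by 0.70 ± 0.10 and 0.60 ± 0.09, the exporter ABCC3 fell by 0.53 on the log2 scale, and HMOX1 was not called at 21.0 ± 1.98 CPM in WT and 21.1 ± 0.64 CPM in S181E. Heat shock genes had 8 of 18 higher and 1 lower outside the stretch (13 higher and none lower with library totals), led by HSP90AA1 at 0.63 ± 0.07 and HSP90AB1 at 0.60 ± 0.08, while the stress-inducible HSPA1B was not called (0.17 ± 0.08). Chaperones and sensors of the endoplasmic reticulum had 4 of 23 lower, a share near the background of 13.8%, and none higher. They were led by ERN1 at -0.44 ± 0.13. The 4 became 2 without WT replicate 2, 7 without WT replicate 3 and 0 with library totals, and their median turned from -0.13 to 0.03 when scaled by library totals. SYVN1, another of the 4, lost its call in 5 of the 6 fits that left out a control library.

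Interferon-stimulated genes were lower in 8 of 13 and higher in 3, with a median of -0.30. The largest change was a rise, that of SAMHD1, a dNTP hydrolase, at 0.73 ± 0.09, and PARP9 fell by 0.50 on the log2 scale. The 8 became 4 without WT replicate 2, 5 without any one of S181E replicate 1, S181E replicate 3 and WT replicate 3, and 1 with library totals. Class I antigen presentation genes had 3 of 9 lower, led by TAPBP at -0.49 ± 0.06, with 7 lower without WT replicate 3 and 1 with library totals. Targets of p53 had 8 of 20 lower and 1 higher outside the stretch, and 3 lower and 4 higher with library totals. They were led by GDF15, a secreted stress marker, at -0.61 ± 0.10, followed by FAS at -0.61 ± 0.20 and TP53I3 at -0.56 ± 0.22. FAS lost its call without S181E replicate 3 or WT replicate 2. TP53I3 lost its call in all 6 fits that left out a control library, and the 8 became 5 without S181E replicate 3 or WT replicate 3. Lysosomal genes had 12 of 29 lower and 1 higher, and 6 lower and 3 higher with library totals. They were led by the cholesterol carrier NPC2 at -0.71 ± 0.08. NF-kB targets had 1 of 9 higher, NFKBIA, which lost its call without WT replicate 2, and 1 lower, LIF. Library totals gave 4 higher and none lower. The remaining lists were small. Of 3 tested cancer-testis genes, MAGEA3 and MAGEB2 rose by 0.32 each, MAGEB2 without a call when WT replicate 2 was left out, and of 8 neuronal genes 5 rose and 2 fell, led by VSNL1 and HTR7.

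Long noncoding RNAs were called lower more often than higher. In a fit over all gene types, 1494 of 9047 features outside the stretch were called higher (16.5%) and 1223 lower (13.5%). Of the 128 lncRNAs among them, 5 were called higher and 41 lower, with a median log2 difference of -0.17. These counts were not repeated with library totals, which moved the median of protein-coding genes outside the stretch from 0.03 to 0.18. The nuclear RNA MALAT1 was at 138, 173 and 180 CPM in WT and at 60.5, 60.1 and 59.5 CPM in S181E (-1.44 ± 0.11, adjusted p = 2.96e-10, edgeR). NEAT1, the scaffold of paraspeckles, was at 157, 190 and 195 CPM in WT and at 96.5, 90.3 and 104 CPM in S181E (-0.89 ± 0.10). MIR4435-2HG and CYTOR were the most raised, by 1.04 ± 0.12 and 0.70 ± 0.11, and as near copies of each other they may share reads. These 4 were chosen after their values were seen. The parental library held 124 CPM of MALAT1 and 142 CPM of NEAT1. The share of nuclear RNA that reached the clarified lysate and the poly(A) selection was not measured.

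On chromosome 8 the pattern changed within a short distance. The stretch was set where levels of this comparison step down, so its counts are a description. Of its 207 tested genes, out of 420 protein-coding genes listed there, 183 were called, 2 of them higher and the others lower, where 15.4% of all tested genes were called lower, and 202 had log2 differences below 0. The median was -0.62, with quartiles at -0.80 and -0.40. Just below the start, FNTA was at 31.9, 35.9 and 35.4 CPM in WT and at 29.6, 34.2 and 28.7 CPM in S181E, and POMK at 63.7 to 71.5 CPM and 63.8 to 65.9 CPM, and both overlapped between the groups. Just above it, HGSNAT, a lysosomal acetyltransferase, was at 25.9, 31.8 and 29.3 CPM in WT and at 17.4, 18.4 and 17.5 CPM in S181E, and SPIDR, a DNA repair scaffold, at 45.9 to 51.4 CPM and 24.6 to 29.0 CPM, without overlap. SLC20A2, a phosphate transporter that starts at 42416475, below the stretch, was at 164.6, 173.8 and 153.9 CPM in WT and at 79.55, 79.06 and 81.3 CPM in S181E (log2 difference -1.04 ± 0.07), and was singled out after its value was seen, while THAP1 and HOOK3 between it and the stretch were not called. The 115 tested genes of chromosome 8 below the stretch had a median of 0.12, with 30 called higher and 14 lower. Medians of the other chromosomes, leaving out the mitochondrial one, lay between -0.01 and 0.10.

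Along the stretch the fall was deepest near its start. In windows of 10 Mb, the median was -0.92 over the 6 genes below 50 Mb, -0.89 over 14 genes from 50 Mb, -0.81 over 13 genes from 60 Mb and -0.50 over 13 genes from 70 Mb. It stayed between -0.41 and -0.56 in the windows from 80 to 140 Mb and was -0.70 over the 58 genes beyond 140 Mb.

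**Figure D4:**
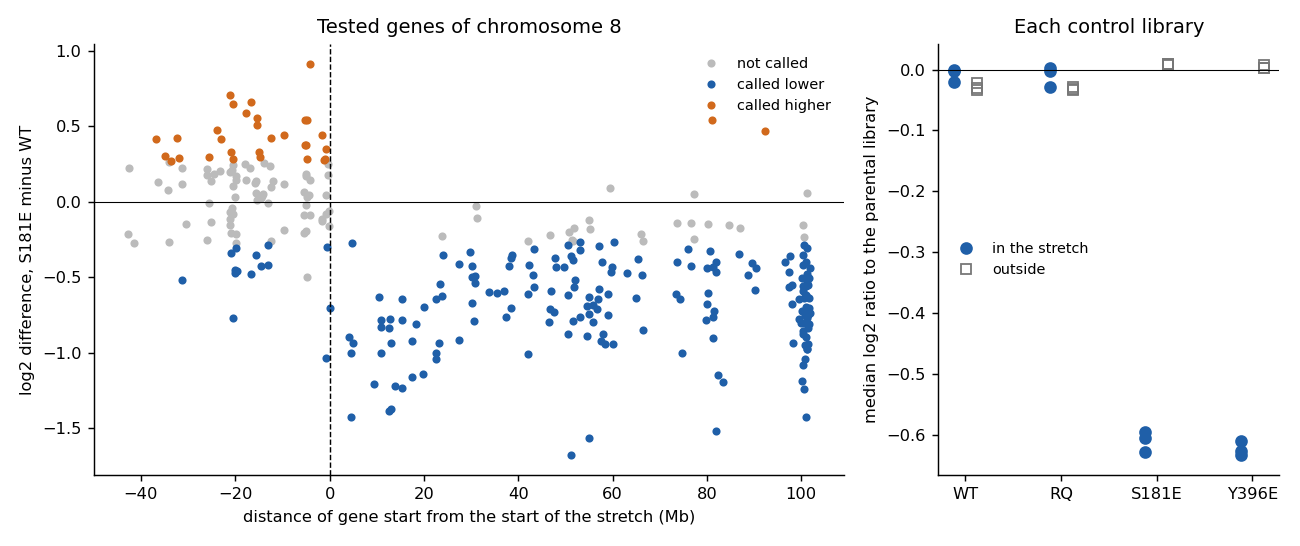
Left, log2 difference between S181E and WT for every tested gene of chromosome 8 against the distance of its start from the start of the stretch (dashed line), blue where called lower, orange where called higher and grey where not called. Right, median log2 ratio to the parental control library over the genes in the stretch (filled circles) and outside it (open squares), for each control library of 4 populations, with S181E and Y396E libraries between -0.60 and -0.63 in the stretch and WT and RQ libraries between -0.03 and 0.00.

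The largest falls in the stretch were those of GEM, a small GTPase, at 23.8, 21.5 and 23.7 CPM in WT and at 7.21, 7.22 and 7.11 CPM in S181E (log2 difference -1.68 ± 0.11), NIPAL2 (-1.56 ± 0.08), SQLE (-1.52 ± 0.10), OPLAH (-1.43 ± 0.10) and CEBPD (-1.43 ± 0.14). GEM, NIPAL2 and OPLAH were at or under 10 CPM in all 3 S181E libraries and passed the filter through other groups. Housekeeping genes took part. PABPC1, the cytoplasmic poly(A)-binding protein and a partner of IGF2BP1, was at 3891, 4241 and 4142 CPM in WT and at 2143, 2192 and 2133 CPM in S181E (-0.92 ± 0.04). The ribosomal protein genes RPS20, RPL30, RPL7 and RPL8 fell by 1.37, 0.74, 0.67 and 0.64 on the log2 scale, beyond the range of the 72 ribosomal protein genes elsewhere, whose largest fall was 0.36. The 4 respiratory chain genes NDUFB9, UQCRB, CYC1 and COX6C and the translation factors EIF3E and EIF3H were also lower.

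MYC, the transcription factor and a known IGF2BP1 target, fell less than most genes of the stretch. It was at 516.7, 511.1 and 508.8 CPM in WT and at 480.3, 451.0 and 447.8 CPM in S181E (log2 difference -0.16 ± 0.05), which did not reach the fold threshold. In the fit over all gene types, the nearby lncRNAs PVT1 (-0.16 ± 0.06) and CASC8 (0.05 ± 0.09) were not called either. Another nearby lncRNA, CASC19, was called lower (-0.78 ± 0.14). TMEM65 and KHDRBS3, an RNA-binding protein of the Sam68 family, were the 2 called higher, at 0.54 ± 0.10 and 0.47 ± 0.12, and KLF10 was not called at 0.09 ± 0.06.

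The same block was present in one other population. Relative to the parental control library, the median log2 ratio over the stretch was -0.63, -0.60 and -0.61 in the S181E libraries and -0.63, -0.63 and -0.61 in the Y396E libraries, whereas it was -0.02, 0.00 and 0.00 in WT and -0.03, 0.00 and 0.00 in RQ. Outside the stretch, the medians of these 12 libraries lay between -0.03 and 0.01. PABPC1 was at 2147 ± 35.5 CPM in Y396E and at 4275 ± 204 CPM in RQ (SD, n = 3). Mutation and sorted population cannot be told apart for this block.

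The control difference was compared with that under 500 µM sodium arsenite for 2 h, which triggers oxidative stress. Outside the stretch, the S181E difference changed with arsenite in 1455 genes (16.4%) by the interaction test of edgeR, a count that was 726 without WT control replicate 2. Among the 2648 genes called in control cells it changed in 997, and in 984 of these against the direction of the control difference. Genes picked for a control difference lean this way by selection, so the 984 are a description. VSNL1, SYTL2 and MKX had differences of 2.83, 2.198 and -2.36 on the log2 scale under arsenite, and their changes of -0.06 ± 0.17, -0.15 ± 0.11 and -0.01 ± 0.24 did not pass the test. IGF2BP1 likewise differed by 0.57 under arsenite. ANGPTL4 and MERTK, by contrast, differed by 0.19 and -0.13 under arsenite, where they had differed by -1.58 in control cells. Both were at or under 10 CPM in all 3 S181E control libraries and passed the filter only through other groups.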

How the data were processed

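Poly(A) RNA libraries of 26 samples were sequenced as single reads. Labels gave the group and number of each library. The authors aligned the reads to hg38 with STAR 2.7.11b and counted them per gene on the reverse strand with featureCounts 2.0.6 against GENCODE 46, per the file headers and the study's methods, and they deposited raw counts in whole numbers. Strand-aware counts keep most antisense reads apart. Symbols and gene types came from GENCODE 44, to which 62541 of 63086 identifiers (99.1%) matched. Identifiers without a match held at most 0.0356% of a library's counts.

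Of the protein-coding genes, those above 10 CPM in 12 or more of 24 transgenic libraries entered 1 edgeR 4.0.16 model (R 4.3.3) with a mean per group, TMM factors and 16 residual degrees of freedom. The biological coefficient of variation was 0.0682 and the median SE of a log2 difference 0.0779. SE is the log2 difference divided by the square root of F. Adjustment followed Benjamini-Hochberg across all genes tested. The fit was tested on simulated data. Replicate pairs differed by more than counting noise, with 3.55 to 32.6 chi-square per gene.

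Named outside the stretch were the IGF2BP genes, the 12 largest rises and 12 largest falls without overlap, and up to 4 leading called genes per list with members not called for a missing role. In the stretch these were the 5 largest falls, the 3 highest, PABPC1, MYC and the genes at its border. Members of the lists that served as examples beyond this rule, and the genes with a printed promoter, were chosen after their values were seen. The comparison, the stretch, the lists and these rules were all chosen with earlier results of these data known. Alternatives were DESeq2 1.42.0, other scaling, filters and thresholds, all gene types, fewer libraries and a replicate block, and 1 scaling, totals without mitochondrially encoded genes, was added after seeing the data. Arsenite libraries entered the shared spread and the interaction test. Immunoprecipitates were not analysed here. Some genes that these rules name, 1 of the largest falls among them, are not reported here.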

Additional observations from a re-analysis of the deposited data

Results flagged for a closer look

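Among 37 leading genes compared, the S181E difference changed between control cells and arsenite in 9, by an interaction test that passed the same thresholds as the calls. The values are the difference under arsenite minus that in control cells on the log2 scale, and the 24 leading genes outside the stretch had been picked for a large control difference. ANGPTL4 changed by 1.77 ± 0.18 (SE, adjusted p = 8.24e-07, edgeR), MERTK by 1.45 ± 0.18 and PRSS22 by 1.252 ± 0.18, each from a fall in control cells toward 0. ANGPTL4, MERTK, PRSS22 and, in the stretch, GEM were at or under 10 CPM in all 3 S181E control libraries. They passed the filter on low counts only through libraries of other groups. AREG changed by 0.71 ± 0.11, KLK7 by 0.32 ± 0.08 and KLK6 by 0.31 ± 0.10, and all 3 remained lower in S181E under arsenite. PKP2, higher in control cells, changed by -0.48 ± 0.09. In the stretch, GEM changed by 1.30 ± 0.15 and KLF10 by -0.29 ± 0.08.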

How the results depend on the processing

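Without a fold threshold, 4104 genes were called outside the stretch, 2331 of them higher. At fold 1.5 the counts were 364 in all, 148 higher, 216 lower, 114 lower in the stretch and 104 changed with arsenite, and at fold 2 they were 55, 8, 47, 24 and 11. Library totals gave 3236 higher and 492 lower and a stretch median of -0.46. The stretch median was -0.585 with totals without mitochondrially encoded genes, -0.567 with no filter, and -0.635 with only the S181E and WT libraries or without Y396E arsenite replicate 3. Over fits leaving out 1 library, called genes outside the stretch ranged from 2157 to 2869, higher ones from 1170 to 1531, lower ones from 987 to 1447 (1316 higher and 1447 lower without Y396E arsenite replicate 3, where lower calls became the majority), lower ones in the stretch from 178 to 186, the stretch median from -0.635 to -0.608, and genes changed with arsenite from 726 (without WT replicate 2) to 2061. DESeq2 called 1389 higher and 1255 lower. With the replicate number as a block, 2663 genes were called outside the stretch, 1433 higher and 1230 lower. Deviations of same-numbered WT and S181E libraries had r of 0.014, 0.242 and 0.311, and those of differently numbered ones lay between -0.318 and 0.115. Replicate 3 had the lowest mitochondrial share in both groups (21.09% in WT and 11.66% in S181E). The main fit did not take the numbers as pairs, and what the libraries of a number share was not tested. No named gene that was called changed its direction in 21 alternatives. Leaving the fold thresholds aside, library totals lost 18 calls of named genes, and leaving out WT replicate 2 lost 16. The cause of these shifts was not tested. At these depths the median SE of 0.0779 leaves small differences unresolved.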
